A study of Danio rerio with 13 samples.

Results

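The genes described here encode the machinery that copies chromosomal DNA. They were chosen by name, as 42 zebrafish symbols for the origin recognition complex, its loading factors, the replicative helicase and its activators, the clamp and its loader, the single-strand binding protein, the replicative polymerases and the enzymes that join Okazaki fragments. The symbols matched 43 of the 32105 gene identifiers in the deposited count table, because 2 identifiers carry the symbol mcm6. Of these 43 rows, 40 passed the filter on low counts. The 3 that did not pass were orc6, gins1 and ENSDARG00000033231, one of the rows named mcm6, which fell to 7, 6 and 4 reads in their lowest libraries.

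RNA was sequenced from 13 acute lymphoblastic leukemias of zebrafish of a double transgenic line, in which the rag2 promoter drives human MYC and the lck promoter drives eGFP. The rag2 promoter is active in lymphoid precursors and the lck promoter in lymphocytes, chiefly T cells, so the GFP-positive cells sorted from the whole body are those in which this reporter was on. All libraries belong to 1 group, there is no control, and the labels give no age and no B or T class. The sample descriptions hold a letter, c or d, whose meaning is not stated, so libraries of the 2 letters were also looked at apart.

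The column hMYC-1 was left out, since its counts lay close to the sum of hMYC-10 to hMYC-14 and may not be those of a separate library. For the 43 replication rows its count was 0.942 to 1.5 times the sum of those 5 columns, with a median of 1.15. The 12 other libraries, 6 of letter c and 6 of letter d, held 8166453 to 12297780 counts each. Levels are given as log2 CPM, the log2 of CPM (reads of a gene scaled to a common library size) after TMM scaling with a prior count of 2. Nothing in the labels says that the fish were unrelated or the libraries prepared apart, so p-values measure only the spread between these samples. In bulk RNA, fewer dividing cells and less RNA of a gene per cell cannot be told apart.

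In eukaryotic cells the origin recognition complex marks origins, and Cdc6 and Cdt1 then load the Mcm2 to Mcm7 ring onto DNA, a step that geminin blocks by binding Cdt1. The kinase Cdc7 with its activator Dbf4, and the joining of Cdc45 and the GINS complex, turn the loaded ring into a working helicase in S phase. Many of these genes are transcribed late in G1 under E2F factors in mammalian cells, whereas genes of mitosis peak later in the cycle. MYC is known in mammalian cells to promote entry into S phase.

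Replication genes varied together between leukemias. The replication score, the mean log2 CPM of the 40 rows, was lowest in hMYC-6 at 3.78 and hMYC-2 at 3.91, had a median of 4.8, and was highest in hMYC-8 at 5.61, hMYC-14 at 5.64 and hMYC-13 at 5.68. The highest and lowest leukemia therefore differed 3.74-fold. Of the 40 genes, 18 had their lowest value in hMYC-6 and 16 in hMYC-2. The highest value of 14 genes was in hMYC-8, of 12 in hMYC-13 and of 8 in hMYC-14. In hMYC-14, 38 of the 40 genes lay above their own median over the leukemias, and in hMYC-6 1 gene did. The same counts were not made over all genes, so these show nothing particular to the replication genes.

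**Figure D1:**
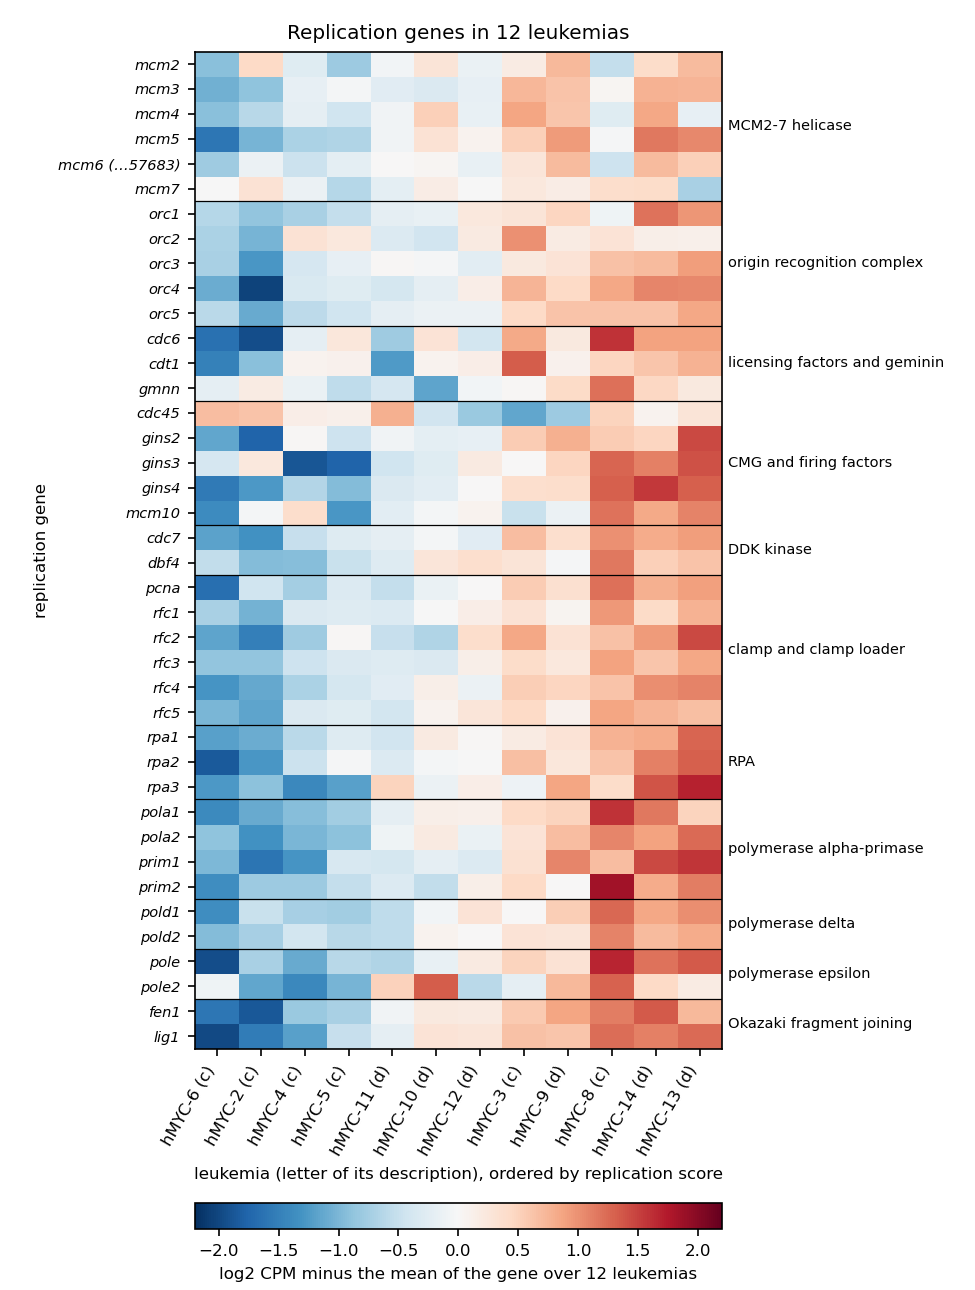
Each row is a replication gene and each column a leukemia, ordered from the lowest to the highest replication score, with the letter of its description in brackets. Colour gives the log2 CPM of the gene minus its mean over the 12 leukemias. Most rows run from blue in hMYC-6 (score 3.78) to red in hMYC-13 (score 5.68), whereas cdc45 and mcm7 do not.

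The spread of the replication genes was wider than that of the typical gene. Their SD between leukemias ran from 0.37 for mcm7 to 1.1 for lig1, with a median of 0.81, against a median of 0.46 over all 10653 genes that passed the filter. For 39 of the 40 genes the SD was above that median. The median Pearson r over the 780 pairs of replication genes was 0.78, and 58.8% of pairs had an r over 0.7. Over all pairs of genes that passed the filter the median r was 0.0, and 2.8% exceeded 0.7. The 48 genes of mitosis described below had the same median SD, 0.81, and a higher median r of pairs, 0.89. Neither trait was therefore particular to the replication genes. These are descriptions across genes measured in the same 12 libraries, which share depth and scaling. The score moved with both: its r with the log2 of total counts was 0.45 and with the log2 TMM factor 0.67, the lowest factor being 0.746 in hMYC-2. Scaled by library totals, the median SD was 0.90, against 0.5 over all genes, and the median r of replication pairs was 0.83. The part of depth and scaling in the result was not tested.

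The helicase genes mcm2 to mcm7 encode the ring that unwinds DNA. mcm5 varied most, from 4.85 in hMYC-6 through a median of 6.47 to 7.6 log2 CPM in hMYC-14. mcm7 varied least of all replication genes, from 6.53 in hMYC-13 through 7.32 to 7.65 in hMYC-14. Its lowest value thus fell in the leukemia with the highest replication score, and its r with the score of the other replication genes was 0.10, against 0.90 for mcm5. mcm2 ran from 6.51 in hMYC-6 through 7.48 to 8.13 in hMYC-9. It was low in hMYC-8, at 6.90, where pcna, pola1, prim2, pold1, pold2 and pole peaked. After TMM scaling it was high in hMYC-2, at 7.86, where most replication genes were low. The TMM factor of hMYC-2, 0.746, was the lowest, which raises all values of that library. The high place of mcm2 there therefore depends on the scaling. The main mcm6 row, ENSDARG00000057683, followed mcm2 (r = 0.852, two-sided permutation p = 0.00047, Benjamini-Hochberg adjusted p = 0.0011; Spearman's rho 0.86 with permutation p = 0.00063, adjusted to 0.0011). Adjusted values here and below cover 14 pairs of single genes. After dropping hMYC-5 and hMYC-6, whose mcm2 values lay farthest from its median, r was 0.844 (permutation p = 0.00302). It was 0.71 for letter c (exact p = 0.117) against 0.871 for letter d (exact p = 0.0264).

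The other row named mcm6, ENSDARG00000033231, held few reads and went another way. It had 58 reads in hMYC-2, 29 in hMYC-4 and 4 to 18 in the 10 other leukemias, and its r with the replication score was -0.49. The gene table does not tell the 2 mcm6 rows apart, and reads of near-identical copies may be divided between them.

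The origin recognition complex is the ATP-driven platform on which the helicase is loaded. Its genes orc1, orc3, orc4 and orc5 had r of 0.87 to 0.96 with the score of the other replication genes. orc4 had the widest range of those past the filter, from 2.19 in hMYC-2 through 4.20 to 5.31 in hMYC-14. orc2 ranged from 2.99 in hMYC-2 through 4.16 to 5.02 in hMYC-3 and followed the others less, with an r of 0.57. orc1 and orc3 were related (r = 0.828, permutation p = 0.00074, adjusted to 0.00138; Spearman's rho 0.874 with permutation p = 0.00038, adjusted to 0.00076). Without hMYC-13 and hMYC-14 r was 0.735 (permutation p = 0.0122), and it was 0.814 in letter c (exact p = 0.0417) against 0.857 in d (exact p = 0.0444). orc6, below the filter, spanned 7 reads in hMYC-2 and hMYC-6 to 219 in hMYC-14.

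Cdc6 and Cdt1 bring the helicase to origins, and geminin, encoded by gmnn, keeps Cdt1 inactive until the next cycle. cdc6 spanned 2.39 in hMYC-2 through 4.57 to 5.93 in hMYC-8, an 11.6-fold range. cdt1 spanned 1.86 in hMYC-6 through 3.45 to 4.68 in hMYC-3, and gmnn 2.51 in hMYC-10 through 3.66 to 4.89 in hMYC-8. The highest and lowest leukemias of this inhibitor were thus not those of its target. The relation of cdt1 to gmnn did not pass the threshold (r = 0.283, permutation p = 0.374, adjusted to 0.403; Spearman's rho 0.552 with permutation p = 0.0669, adjusted to 0.0851), with r of 0.182 without hMYC-6 and hMYC-11 (permutation p = 0.616), 0.228 in letter c and 0.419 in d. orc1 and cdc6 were related over 12 leukemias (r = 0.63, permutation p = 0.0282, adjusted to 0.0395; Spearman's rho 0.699 with permutation p = 0.0141, adjusted to 0.0197). It was close to the threshold. Without hMYC-13 and hMYC-14 its r was 0.566 (permutation p = 0.0893). With 1 leukemia left out r stayed between 0.527 without hMYC-2 and 0.743 without hMYC-8, while the adjusted p passed 0.05 without any one of hMYC-2, hMYC-3, hMYC-6, hMYC-9, hMYC-11, hMYC-13 and hMYC-14, from 0.0506 without hMYC-9 to 0.127 without hMYC-2. Within letters r was 0.771 for c (exact p = 0.0806) against 0.801 for d (exact p = 0.0569).

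The helicase is completed by Cdc45 and GINS, and here the partners parted. cdc45 spanned 3.11 in hMYC-3 through 4.39 to 5.04 in hMYC-11. Among the replication genes past the filter it alone had a negative r to the rest, -0.37. Its values in hMYC-6 and hMYC-2, 4.93 and 4.88, were among its highest, although most other replication genes were low there. The value in hMYC-2 was raised by the low TMM factor of that library, 0.746. gins2 spanned 1.25 in hMYC-2 through 2.98 to 4.46 in hMYC-13, and gins4 1.40 in hMYC-6 through 2.84 to 4.50 in hMYC-14, with an r of 0.98 to the rest. The relation of cdc45 to gins2 was negative and did not pass (r = -0.373, permutation p = 0.236, adjusted to 0.275; Spearman's rho -0.350 with permutation p = 0.266, adjusted to 0.287), with r of -0.411 without hMYC-3 and hMYC-12, -0.615 in letter c and 0.153 in d. gins1, below the filter, spanned 6 reads in hMYC-2 to 218 in hMYC-13. mcm10, which helps to start the helicase, ranged from 0.73 in hMYC-6 to 3.31 in hMYC-8.

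**Figure D2:**
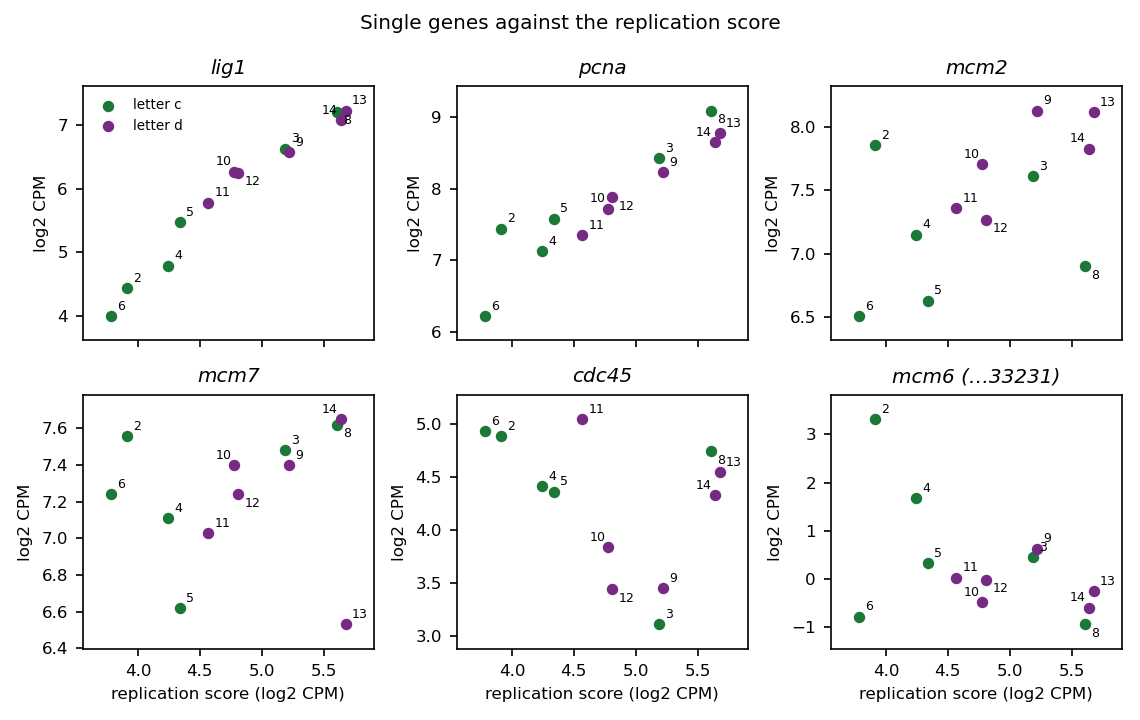
Each panel plots the log2 CPM of 1 gene against the replication score of the 12 leukemias, labelled by number and coloured by letter. The score contains lig1, pcna, mcm2, mcm7 and cdc45 themselves but not the mcm6 row ENSDARG00000033231. lig1 rises along the score from 4.0 to 7.23, while mcm7 has its lowest value, 6.53, in hMYC-13 and cdc45 its lowest, 3.11, in hMYC-3.

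The kinase Cdc7 and its activator Dbf4 fire origins. Both genes peaked in hMYC-8, cdc7 at 3.95 and dbf4 at 5.01, and were lowest in hMYC-2, at 1.61 and 2.89. They were related with r = 0.856 (permutation p = 0.00043, adjusted to 0.0011) with a Spearman's rho of 0.916 (permutation p = 8e-05, adjusted to 0.000303). Without hMYC-2 and hMYC-8 r was 0.771 (permutation p = 0.0099), with 0.885 for letter c (exact p = 0.0125) against 0.624 for d (exact p = 0.201).

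The clamp Pcna holds polymerases on DNA, and the 5 RFC subunits load it. pcna spanned 6.22 in hMYC-6 through 7.8 to 9.09 in hMYC-8, a 7.32-fold range. The 6 genes of clamp and loader formed the tightest of the larger groups, with pairwise r of 0.85 to 0.98, and rfc4 had the highest r of any replication gene to the rest, 0.99. rfc1 and rfc4 gave r = 0.909 (permutation p = 6e-05, adjusted to 0.00021) with a Spearman's rho of 0.944 (permutation p = 3e-05, adjusted to 0.00028), with 0.946 without hMYC-2 and hMYC-8 (permutation p = 0.00012), 0.939 for letter c (exact p = 0.00556) against 0.873 for d (exact p = 0.0208). The genes of RPA, which coats single-stranded DNA, were all highest in hMYC-13. rpa1 and rpa2 had r = 0.956 (permutation p = 1e-05, the smallest the test can give, adjusted to 4.67e-05) with a Spearman's rho of 0.923 (permutation p = 0.00012, adjusted to 0.000303), and without hMYC-2 and hMYC-6 r was 0.934 (permutation p = 7e-05). rpa3 spanned 2.87 in hMYC-4 through 4.31 to 5.98.

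Polymerase alpha with primase starts each new strand. pola1 spanned 3.83 in hMYC-6 through 5.35 to 6.82 in hMYC-8, and prim1 2.48 in hMYC-2 through 3.84 to 5.66 in hMYC-13. The 4 genes had pairwise r of 0.80 to 0.94, among them r = 0.844 for pola1 and prim1 (permutation p = 0.00079, adjusted to 0.00138; Spearman's rho 0.909 with permutation p = 0.00013, adjusted to 0.000303), which was 0.906 without hMYC-6 and hMYC-8 (permutation p = 0.00053). Polymerase delta extends mainly the lagging strand, and its genes pold1 and pold2 were closely related (r = 0.96, permutation p = 1e-05, adjusted to 4.67e-05; Spearman's rho 0.916 with permutation p = 9e-05, adjusted to 0.000303). Without hMYC-6 and hMYC-8 r was 0.933 (permutation p = 0.00029).

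Polymerase epsilon extends the leading strand, and its catalytic subunit gene pole had a 12.4-fold range, from 2.82 in hMYC-6 through 4.8 to 6.45 in hMYC-8. The gene of its other listed subunit, pole2, followed another order, with 2.25 in hMYC-4, a median of 3.71 and 5.0 in hMYC-10, where pole was at 4.61. In hMYC-6, the leukemia with the lowest pole, pole2 stood at 3.58. The relation of pole to pole2 did not pass (r = 0.517, permutation p = 0.088, adjusted to 0.112; Spearman's rho 0.503 with permutation p = 0.0972, adjusted to 0.113), with r of 0.489 without hMYC-6 and hMYC-8 (permutation p = 0.151), 0.678 in letter c and -0.262 in d.

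Fen1 trims and Lig1 seals Okazaki fragments. fen1 spanned 3.45 in hMYC-2 through 5.52 to 6.66 in hMYC-14, and lig1 4.0 in hMYC-6 through 6.26 to 7.23 in hMYC-13. Their r was 0.966 (permutation p = 1e-05, adjusted to 4.67e-05) with a Spearman's rho of 0.93 (permutation p = 4e-05, adjusted to 0.00028). Without hMYC-2 and hMYC-6 r was 0.943 (permutation p = 9e-05), with 0.973 for letter c (exact p = 0.00417) against 0.845 for d (exact p = 0.0333). Of the 14 pairs of single genes, 10 passed the adjusted threshold, 9 of them pairs of replication genes that work in 1 complex or step and the other pcna with aurkb. The pairs cdt1 with gmnn, cdc45 with gins2 and pole with pole2, also of 1 complex or step, did not pass. Over all 780 pairs of replication genes the median r was 0.78 and 58.8% exceeded 0.7. These counts therefore show nothing particular to a shared complex or step.

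Replication genes were then set against genes of mitosis, to ask whether leukemias rich in one were rich in the other. The mitosis score, the mean log2 CPM of 48 genes such as aurkb, plk1 and cdk1 that share no row with the replication genes, was lowest in hMYC-4 at 3.65, had a median of 4.89 and was highest in hMYC-8 at 6.67. The scores went together with r = 0.75 and rho = 0.92 over 12 leukemias, r = 0.81 in letter c and 0.75 in d, as a description of scores from the same libraries. Without hMYC-4 and hMYC-8, the 2 leukemias farthest from the median mitosis score, r was 0.86. The replication score minus the mitosis score was 0.59 in hMYC-4, the highest, and -1.07 in hMYC-8, the lowest, with a median of -0.17. These leukemias are the extremes of the score that was subtracted, which had the wider range, 3.02 against 1.9 log2 units. Their place in the difference therefore follows in part from how they were picked. In hMYC-8 pole, pola1, prim2, pold1 and pold2 were at their peak but none of the 6 helicase genes was. There mcm7 lay close to its own peak, at 7.62 against 7.65 in hMYC-14. In hMYC-4 the mean of the helicase genes was 6.52, below their median of 6.74, while its mitosis score was the lowest.

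**Figure D3:**
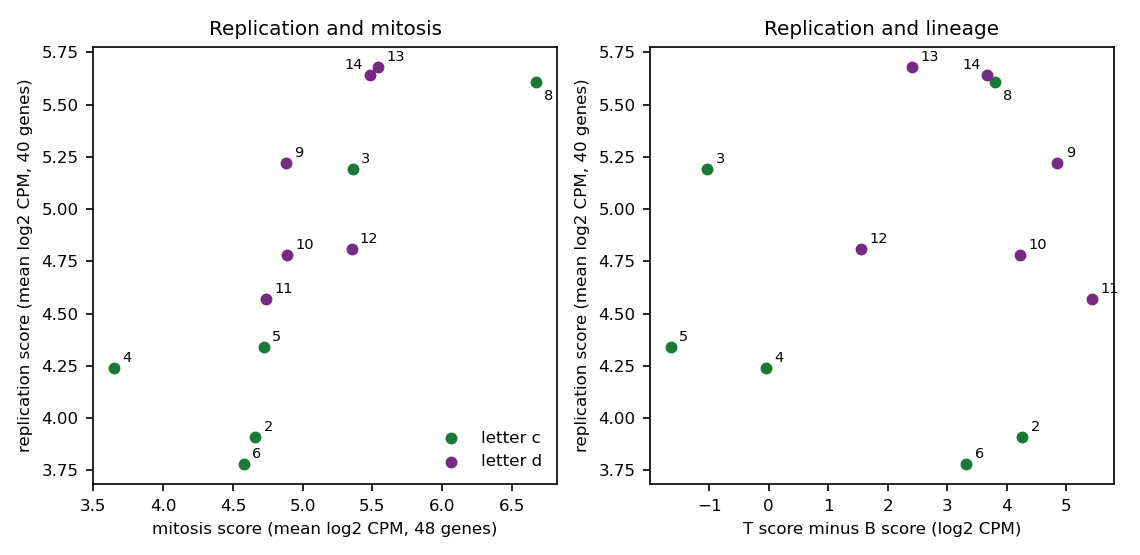
The replication score of each leukemia is plotted against its mitosis score on the left and against its T score minus B score on the right, all in log2 CPM, with leukemias labelled by number and coloured by letter. On the left the scores rise together (rho = 0.92), with hMYC-4 (3.65, 4.24) and hMYC-8 (6.67, 5.61) at the ends of the mitosis score. On the right no order is seen (r = 0.10).

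Each gene was fitted on the mitosis score across the 12 leukemias with edgeR's quasi-likelihood test, and its slope is the log2 change per log2 unit of that score. Of the 40 replication genes 39 had a positive slope, with a median of 0.72, against -0.03 over all 10605 genes tested. Past an adjusted p of 0.05, 7 genes were higher with the mitosis score and 0 lower, where 1.77% of all genes tested were called higher and 0.00943% lower. They were pole (slope 1.22 ± 0.23 SE, edgeR adjusted p = 0.00843), gins3 (1.19 ± 0.28, adjusted p = 0.0482), prim2 (1.08 ± 0.17, adjusted p = 0.00206), pola1 (1.01 ± 0.20, adjusted p = 0.014), pold1 (0.86 ± 0.19, adjusted p = 0.0334), pcna (0.85 ± 0.19, adjusted p = 0.0301) and dbf4 (0.82 ± 0.13, adjusted p = 0.00247). The adjustment also covered the 48 genes that make up the score, which follow it by construction. An adjusted p close to 0.05, as for gins3, may lie above it without them. Calls without them were not computed. At an unadjusted p under 0.05 the count was 29 of 40, against 6.54% of all genes tested.

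None of the 6 helicase genes passed even the unadjusted threshold, and their slopes ran from 0.09 ± 0.25 SE for mcm2 and 0.14 ± 0.15 for mcm7 to 0.64 ± 0.34 for mcm5. cdc45 had the 1 negative slope, -0.06 ± 0.23. The clamp loader genes had slopes of 0.59 to 0.91, lig1 1.11 ± 0.28 (edgeR adjusted p = 0.0744) and fen1 0.92 ± 0.29 (adjusted p = 0.245). The difference in slope between the helicase and the polymerase genes was not tested.

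**Figure D4:**
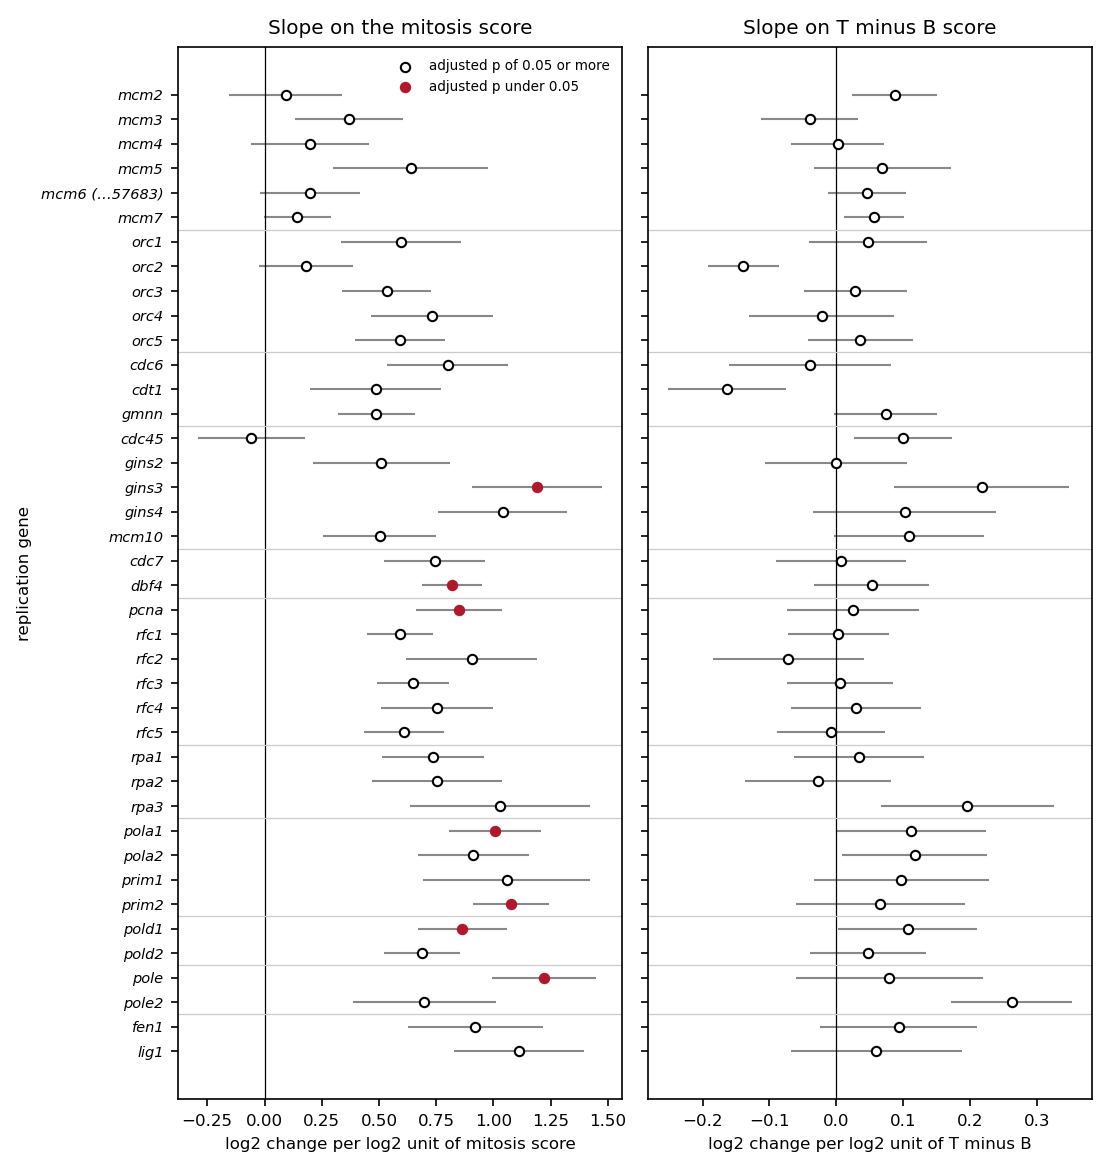
Points give the slope of each replication gene on the mitosis score (left) and on the T score minus the B score (right), in log2 change per log2 unit of the score, with bars of 1 SE over 12 leukemias. Red points have an edgeR adjusted p under 0.05. The 7 red points on the left lie between 0.82 and 1.22, and no point on the right is red.

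The number of calls moved with hMYC-8 and with the tool. gins3, pold1 and pcna also missed the threshold without some other single libraries. Without hMYC-4 their edgeR adjusted p was 0.3, 0.0504 and 0.0533. Among fits that left out 1 library, pole, prim2 and pola1 missed it only without hMYC-8. Without hMYC-8, 1 gene was called, dbf4, with a slope of 0.92 (edgeR adjusted p = 0.0428), where 0.817% of all genes tested were called higher. The median slope was 0.90, and 29 of 40 genes had an unadjusted p under 0.05, against 10.9% of all genes tested. Leaving out both hMYC-4 and hMYC-8, chosen after the data were seen, raised the median slope to 1.65 and gave 34 of 40 genes an unadjusted p under 0.05, against 13% of all genes tested, but 0 of 40 an adjusted one. The DESeq2 Wald test called 21 of 40 genes, against 2.78% of all genes tested, among them gins3, gins4, rpa1, rpa3 and all 6 genes of clamp and loader but no helicase gene. At an unadjusted p under 0.05 it counted 30 of 40, against 8.56% of all genes tested. Within letter c the median slope was 0.57 and within d 1.18, with 0 genes called by edgeR in either and 23 of 40 genes in c and 21 of 42 in d at an unadjusted p under 0.05, against 4.76% and 14.4% of all genes tested. With the letter as a covariate 10 were called, where 1.98% of all genes tested were called higher.

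aurkb (ENSDARG00000037640) encodes Aurora B, the kinase that corrects chromosome attachment and drives cytokinesis. Its level ran from 3.10 in hMYC-4 through 4.77 to 6.36 log2 CPM in hMYC-8, and in letter d from 4.67 to 5.15. Fitted on aurkb, 39 of 40 replication genes had a positive slope, as had 4950 of all 10652 genes tested. Of the replication genes 3 were called higher and 0 lower, where 1.53% of all genes tested were called higher and 0.0188% lower. At an unadjusted p under 0.05 the count was 27 of 40, against 7.73% of all genes tested. The 3 called genes were dbf4 (0.74 ± 0.13 SE, edgeR adjusted p = 0.0086), pola1 (0.96 ± 0.17, adjusted p = 0.0107) and prim2 (0.90 ± 0.20, adjusted p = 0.0412). Without hMYC-8, 0 replication genes were called, as were 0% of all genes tested, but the slopes were 0.99 for pola1, 0.78 for dbf4 and 0.78 for prim2. The median slope was 0.73 against 0.61 with hMYC-8, and 27 of 40 genes again had an unadjusted p under 0.05, against 11.8% of all genes tested. Without hMYC-13, 10 were called, where 2.27% of all genes tested were. Within letter c 38 of 40 slopes were positive, with a median of 0.55. There 25 genes had an unadjusted p under 0.05, against 5.02% of all genes tested. Within d, by contrast, 22 of 42 slopes were positive, with a median of 0.02, and 1 gene was at that threshold, against 6.89% of all genes tested. The difference between letters was not tested, and aurkb spanned a narrow range in d. Without both hMYC-4 and hMYC-8, 0 were called and 33 of 40 had an unadjusted p under 0.05, against 10.3% of all genes tested. The DESeq2 Wald test called 12 of 40, against 2.81% of all genes tested, and 30 at an unadjusted p under 0.05, against 10.1%. pcna and aurkb were related with r = 0.742 (permutation p = 0.00682, adjusted to 0.0106) with a Spearman's rho of 0.790 (permutation p = 0.00334, adjusted to 0.0052), and r was 0.673 without hMYC-6 and hMYC-8 (permutation p = 0.0233). Those libraries were picked by their distance from the median of pcna. Without hMYC-4 or without hMYC-8, the extremes of aurkb, neither this pair nor mcm2 with aurkb was tested, since values then fell into separate clusters. The relation was 0.825 for letter c (exact p = 0.0403) against 0.104 for d (exact p = 0.822), so it did not hold within both letters. mcm2 and aurkb gave r = 0.127 (permutation p = 0.702, adjusted to 0.702) with a Spearman's rho of 0.182 (permutation p = 0.576, adjusted to 0.576), with -0.169 without hMYC-5 and hMYC-6.

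Other genes of DNA synthesis, taken from fixed lists, were fitted on the mitosis score in the same way, edgeR adjusted p-values covering all genes, of which 1.77% were called higher. Without both hMYC-4 and hMYC-8, 0 of all 10645 genes tested passed, so each of the following calls was lost there. Of 12 genes that supply nucleotides or handle chromatin in S phase, 6 were called higher and 0 lower, among them tk1 (thymidine kinase, slope 1.26 ± 0.18 SE), rrm1 (the large ribonucleotide reductase subunit, 1.05 ± 0.17) and chaf1a (a chromatin assembly factor, 1.19 ± 0.20). Of 26 further replication genes 7 were called higher, with slopes of 1.43 for the nuclease and helicase gene dna2, 1.05 for mcm9 and 1.54 for the helicase gene recql4. Of 28 checkpoint and repair genes 8 were called higher, among them rad54l (1.53), fanci (1.14) and blm (1.17). Of 27 genes that control G1 and S 6 were called higher, led by foxm1 (1.22), which activates G2 and M genes in mammalian cells, fbxo5 (1.24), whose product restrains the anaphase-promoting complex, and mybl2b (1.23). No gene of these 4 lists was called lower.

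The genes whose pattern was most like the replication score over 12 leukemias, by Pearson r among the 10613 other genes tested, were wdhd1, a replisome factor (r = 0.984), SNRPA (0.984), tyms, which makes thymidylate (0.983), DTL (0.978), dnmt1, the maintenance DNA methyltransferase (0.976), dhfr (0.975), exo1 (0.975), ZWILCH (0.974), chek1 (0.968) and rnaseh2a (0.967). The median r of all other genes was -0.05. wdhd1 ran from 1.78 to 5.31 log2 CPM and SNRPA only from 5.29 to 6.28. The median r was 0.91 for the 12 genes of S phase supply, 0.84 for the 26 further replication genes, 0.74 for checkpoint and repair and 0.71 for the 48 mitosis genes. It was lower, 0.38, for the 27 genes that control G1 and S, which ran from -0.48 for tfdp2 to 0.96 for cdk2.

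Whether replication genes differ between leukemias of B and T type was asked through a continuous measure, since the labels name no type. The T score minus the B score, from 21 T and 15 B genes, ran from -1.64 in hMYC-5, -1.03 in hMYC-3 and -0.04 in hMYC-4 to 5.44 in hMYC-11. Only 17 of the T and 5 of the B genes passed the filter on low counts, but all entered the scores. In the fit on this measure, of which they are part, bcl6aa of the B list (slope 0.324) and tox of the T list (-0.115) went against their lists. The other called genes of the 2 lists went with theirs. The leukemias lowest in this measure lay both low and high in replication, with replication scores of 4.34 in hMYC-5, 4.24 in hMYC-4 and 5.19 in hMYC-3. Of these hMYC-5 had the lowest T score, 3.99, against a median of 6.28. In hMYC-4 the T score was 6.48 beside a B score of 6.52, and in hMYC-3 5.43 beside 6.47. A low value of the measure therefore did not always mean a low T score. Among the leukemias at 3.32 or above, hMYC-6 and hMYC-2 had the lowest replication scores of all and hMYC-8, hMYC-14 and hMYC-9 were among the highest. The r of the scores was 0.10 and rho 0.04, with r of -0.13 in letter c and -0.32 in d, and 0.10 without hMYC-3 and hMYC-5.

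In the fit on this measure 0 of 40 replication genes were called by edgeR, where 4.41% of all genes tested were called higher, 5.66% lower and 10.1% either way, and 2 had an unadjusted p under 0.05, where 24.5% of all genes tested had. The median slope was 0.05 log2 per log2 unit, against 0.01 over all genes. The 2 genes were pole2 (0.26 ± 0.09 SE, edgeR adjusted p = 0.083), higher toward the T end, and orc2 (-0.14 ± 0.05, adjusted p = 0.121), higher toward the B end. pole2 was called by the DESeq2 Wald test (adjusted p = 0.0208) and by edgeR without hMYC-2 (slope 0.29, adjusted p = 0.0237), and the DESeq2 test called no other replication gene, where it called 8.83% of all genes tested higher. It gave 3 genes an unadjusted p under 0.05, against 27.5% of all genes tested. A missed threshold does not show that B-type and T-type leukemias express these genes alike. For pcna the slope was 0.03 ± 0.10 SE and for mcm2 0.09 ± 0.06. With the letter as a covariate the median slope was -0.03.

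Libraries of letter d were compared with those of letter c. The replication score was 5.12 ± 0.47 (SD, n = 6) in d against 4.51 ± 0.73 (SD, n = 6) in c. The fitted mean was higher in d for 34 of 40 replication genes, which vary together, and for 5087 of all 10653 genes tested. The letters overlapped, as hMYC-8 and hMYC-3 of letter c stood among the 5 highest. The T score minus the B score also differed, at 3.69 ± 1.47 (SD, n = 6) in d against 1.45 ± 2.64 (SD, n = 6) in c. Differences by letter and differences along that measure therefore cannot be fully told apart. edgeR called 0 of 40 genes, where 0.15% of all genes tested were called higher, 0.272% lower and 0.422% either way, and 6 of 40 had an unadjusted p under 0.05, where 22% of all genes had. Without hMYC-8, 20 of 40 had one, where 24.1% of all genes had, and the median difference was 0.77 against 0.49 with it, but again 0 were called. The lowest adjusted p was that of rpa3 (log2 difference 1.48 ± 0.40 SE, edgeR adjusted p = 0.0808), with 3.54 ± 0.73 (SD, n = 6) in c and 5.03 ± 0.71 (SD, n = 6) in d. The DESeq2 Wald test called 4 genes higher in d, mcm5, orc1, rpa3 and the mcm6 row ENSDARG00000057683, where it called 4.92% of all genes tested higher. It gave 6 genes an unadjusted p under 0.05, against 27% of all genes tested.

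Markers of other cells were summed in CPM to see what the sorted cells held. All 15 B and 21 T genes were detected, with sums of 375 to 5150 and 1270 to 8540. The 10 myeloid genes summed to 68.6 to 1250, highest in hMYC-5, which also had the lowest T score minus B score. In the fit on that measure spi1b of this list was called higher toward the B end (slope -1.21 ± 0.11 SE, edgeR adjusted p = 2.46e-05). It was the 1 call among 6 myeloid genes tested, where 5.66% of all genes tested were called so. Of the 6, 4 had an unadjusted p under 0.05, against 24.5% of all genes tested. Which cells the myeloid reads came from was not tested. The sum of 6 of 8 erythroid genes was 2.65 to 176. Muscle genes summed to at most 3.64, epithelial genes to at most 113 and genes of exocrine pancreas to at most 135. The r of these log2 sums with the replication score lay between -0.18 for muscle and 0.14 for T genes, and their part in the result was not tested.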

How the data were processed

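The deposited data are a single matrix of raw counts, with whole numbers in 13 columns that carry the sample titles and 32105 rows of Ensembl identifiers. All columns matched a sample. Per the submitters' processing notes, bcl2fastq, STAR, Picard and featureCounts and the build GRCz10 were used. Their roles, versions and strand setting are not given in the sources used here, so values for genes that overlap another, or have a close copy, are uncertain. Per the labels' protocols, libraries were made from 100 ng of total RNA with a stranded kit. A gene table named 26269 identifiers (81.8%), and RefSeq synonyms were used where a listed symbol was missing there. No coordinates are printed, since the reference table is of another build.

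Genes and lists were chosen with earlier results of these data known. The listed symbol cd3eap, which resolved to an RNA polymerase I subunit gene, was dropped from the T list after matching. The 12 columns other than hMYC-1 were analysed with edgeR 4.0.16 in R 4.3.3: filterByExpr on 1 group (10653 genes), TMM factors, and quasi-likelihood F tests (two-sided) on a centred score, with Benjamini-Hochberg adjustment over all genes at 0.05. An SE is the size of the slope divided by the square root of F. Genes of a score were left out of counts in its own fit but were kept in the adjustment. The authors' counts were also scaled to log2 CPM (prior count 2). Relations between single genes used permutation tests of 100000 resamples, exact tests within letters, and r after dropping the 2 libraries that lay farthest from the first gene's median. Over the 12 libraries in the main setting, neither gene of any of the 14 pairs had values parted by a gap of 0.4 of the range. Pairs parted in this way under another setting were not tested there. The rule for named genes covered all replication genes, aurkb, the called genes with the 5 largest and 5 smallest slopes, the 10 most alike other genes, and the 3 genes of lowest p in each further list. DESeq2 1.42.0 gave the alternative size factors and Wald test. Other alternatives were library totals, a prior count of 0.5, no filter, hMYC-1 included, the letter or another score as a covariate, each letter alone, and leaving out each library. The fit and the permutation test were tested on simulated data. Figures used matplotlib 3.10.9.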

Additional observations from a re-analysis of the deposited data

How the results depend on the processing

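The 3.74-fold range of the replication score, the covariation and the spread of its genes were recomputed with other scalings, another prior count, hMYC-1 and single libraries left out. The range of the score was 1.90 log2 units and ran from 1.77 to 1.95 over fits that each left out 1 library, and was 2.38 with library totals. The median SD ran from 0.72 to 0.85 and the median r of pairs from 0.74 to 0.83 over the same fits. Counts of called genes depended on the setting. For the mitosis score, 7 replication genes were called, where 1.77% of all genes tested were called higher. The count was 13 with library totals (2.21% of all genes), 4 with no filter (0.473%), 21 with the DESeq2 Wald test (2.78%) and 11 with hMYC-1 (1.92%). It was 0 in letter c alone (0.614%), in letter d alone (0%) and without both hMYC-4 and hMYC-8 (0%). Over fits that each left out 1 library it ran from 1 without hMYC-8 (0.817%) to 7. For aurkb, 3 were called (1.53% of all genes), 7 with library totals (2.19%), 1 with no filter (0.422%) and 12 with DESeq2 (2.81%). The count was 0 in letter c alone (0.934%), in letter d alone (0%) and without both leukemias (0%). With 1 library left out it ran from 0 without hMYC-8 (0%) to 10 without hMYC-13 (2.27%). A count of 0 where 0% of all genes were called says nothing particular to the replication genes. In letter d the slope of prim2 on aurkb was -0.24 in place of 0.90, and without hMYC-6 the r of mcm2 and aurkb was -0.00657, and without hMYC-2 it was 0.206, the lowest and highest of the fits that could be run, which do not include those without hMYC-4 or hMYC-8. For T minus B and for the letter, edgeR called 0, where 10.1% and 0.422% of all genes tested were called either way. DESeq2 called 1 and 4 higher, where 8.83% and 4.92% of all genes tested were. Leaving out 1 library gave 0 to 1 for T minus B and 0 for the letter. Library totals moved the median difference of all genes between letters from -0.02 to 0.11 and their median slope on the mitosis score from -0.03 to 0.07. Among relations, 8 to 10 passed when 1 library was left out, of the 12 to 14 pairs tested, since a pair was not tested where its values then fell into separate clusters. The causes were not tested. No paired analysis was possible because the labels give 1 group. The rows gins1, orc6 and ENSDARG00000033231 had few reads in some libraries, missed the filter and were tested in the fits with no filter.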

Other observations

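Genes of the further lists were also fitted on the T score minus the B score in the 12 leukemias, where edgeR called 4.41% of all genes tested higher toward the T end and 5.66% higher toward the B end. The counts below, 1 of 26, 1 of 12, 3 of 27 and 1 of 28, lie near or below the 10.1% called either way, so they show nothing particular to the lists. Of 26 further replication genes, ctc1, a telomere replication factor in mammals, was called higher toward the T end (slope 0.55 ± 0.10 SE, edgeR adjusted p = 0.003), and its r with the replication score was -0.18. Of 12 genes of S phase supply, the chromatin remodeller gene hells was called higher (0.54 ± 0.12, edgeR adjusted p = 0.00972), with a range of 5.17 to 9.58 log2 CPM and the lowest r of its list to the replication score, 0.40. Of 27 genes that control G1 and S, cdk6, which drives exit from G1, was higher toward the T end (0.40 ± 0.09, edgeR adjusted p = 0.0139). Toward the B end ccne2, a cyclin partner of Cdk2, was higher (-0.34 ± 0.08, edgeR adjusted p = 0.0191), with an r of 0.43 to the replication score against a median of 0.38 in its list, as was fbxw7, whose product marks cyclin E and Myc for destruction in mammals (-0.19 ± 0.04, edgeR adjusted p = 0.0117). Of 28 checkpoint and repair genes atr was higher toward the B end (-0.12 ± 0.03, edgeR adjusted p = 0.0391). These lists were chosen with earlier results of these data known.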
